A study of Mus musculus with 10 samples.

Results

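The genes described here are 8 genes of stratified epithelium, the layered tissue of the epidermis, mouth and oesophagus. They were chosen by symbol, and every probe set that the platform's gene table gives to a single one of them was kept, which made 14 probe sets of 45037 tested and 8 genes of 18193. Trp63 had 4 probe sets, Lor 3, Ivl 2, and Sfn, Lgals7, Sprr1a, Sprr1b and Tgm1 had 1 each. RNA was measured on 10 Affymetrix arrays of mouse secondary inducible embryonic fibroblasts from a 129/SvJ x C57/B6 hybrid, with 2 arrays in each of 5 groups. Controls were uninduced and starved in 0.5% serum for 96 h, without doxycycline. The other 4 groups received doxycycline, labelled as 2 ug/ul, in 15% serum for 96 h, which switches on reprogramming transgenes (Oct4, the product of Pou5f1, with Sox2, Klf4 and Myc), and were labelled as averaging 0, 1, 2, or 3 or more divisions. Induced cells and controls therefore differed in doxycycline and in serum, and these cannot be told apart. The sources used here give neither embryo age nor the way cohorts were separated. Replicates of the control and of 3 or more divisions are labelled biological, those of the other cohorts are only numbered, and no label names separate cultures or embryos, so p-values measure only the spread between these samples. Arrays of the control and of 3 or more divisions were registered as a set of 4, and those of the other cohorts as a set of 6, so a comparison across these sets cannot be told apart from a difference between the sets.

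In epidermis, the transcription factor Trp63 maintains the dividing basal layer. Cells that leave it build the cornified envelope, a protein shell laid under the plasma membrane in which transglutaminases such as Tgm1 cross-link involucrin (Ivl), loricrin (Lor) and the small proline-rich proteins Sprr1a and Sprr1b. Sfn encodes 14-3-3 sigma, a phosphoprotein-binding adaptor that is enriched in stratified epithelia, and Lgals7 encodes galectin-7, a carbohydrate-binding protein of keratinocytes. Fibroblasts normally make little of these transcripts.

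Against the starved control, cells of 3 or more divisions had higher signals for Lgals7 (8.85-fold), Tgm1 (3.83-fold), Sfn (1.95-fold), 1 of the 2 Ivl probe sets (1.57-fold) and Sprr1a (1.55-fold). No probe set of Trp63, Lor or Sprr1b passed. Thus 5 of 14 probe sets were called higher and 0 lower, while 11.3% of all probe sets were called higher and 9.38% lower. A probe set was called at a Benjamini-Hochberg adjusted p under 0.05 in limma, two-sided and over all 45037 probe sets. All 5 calls were higher on both arrays of the cohort than on both controls, as were 3 further member probe sets, and 30.6% of all probe sets had their arrays apart in this direction. After 0 and 1 division limma called 0 of 14 members, with 0 and 1 at an unadjusted p under 0.05, and after 2 divisions it called Lgals7. Of all 45037 probe sets, 4358 and 5453 had such an unadjusted p after 0 and 1 division.

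**Figure D1:**
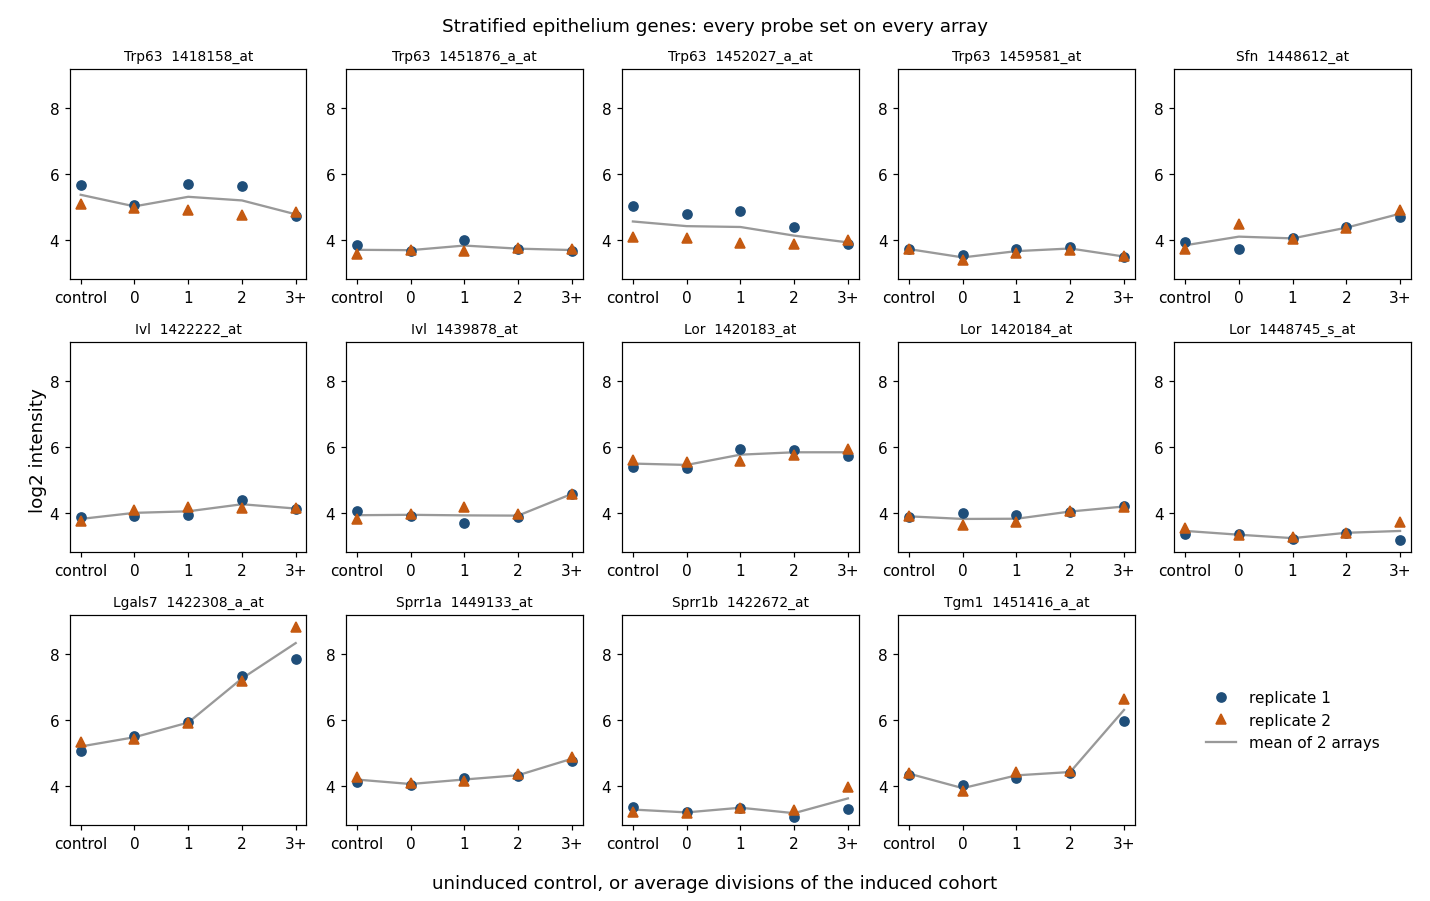
Log2 intensity (y axis) of the 14 probe sets in the uninduced control and the 4 induced cohorts (x axis, average divisions), with a circle for replicate 1, a triangle for replicate 2 and a line through the group means. Lgals7 climbs through the later cohorts to 7.85 and 8.84, Tgm1 stands above the other groups only after 3 or more divisions at 5.99 and 6.64, and the other panels stay within a log2 range of 1.18.

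Most of these readings were dim. Array medians of the deposited intensity were 31.4 to 33.95, and 10 of the 14 probe sets stayed below the median of all probe sets on every array. No detection calls were used here, so whether a dim probe set detected its transcript is not known, and a fold against a dim reading is not exact. With 16 added to each intensity before log2 the 5 calls stood, but the changes against the control were 0.53 for Sfn, 0.35 for Ivl and 0.37 for Sprr1a, each more than 1.5 times smaller than without it. Differences are log2 intensity, with the SE of the fit over 2 arrays per group. In such bulk samples, more cells with a transcript and more transcript per cell cannot be told apart.

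Lgals7, on chromosome 7 (chr7:28863796-28866285, GRCm38.p6), was the only member called against the control after 2 divisions. Among the members it also had the largest change after 3 or more. Its probe set read 5.05 and 5.35 in the control, 5.52 and 5.44 after 0 divisions, 5.93 and 5.92 after 1, 7.35 and 7.19 after 2, and 7.85 and 8.84 after 3 or more. The group means thus rank in the order of the labelled divisions, and the arrays of the last 2 cohorts lie above all others. Against the control the log2 change was 3.15 ± 0.28 (SE) after 3 or more divisions (adjusted p = 0.000352) and 2.07 ± 0.28, or 4.20-fold, after 2 divisions (adjusted p = 0.0100). After 2 divisions 2.48% of all probe sets were called higher, and without replicate 1 of that cohort the Lgals7 call was lost (adjusted p = 0.0876).

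Between neighbouring cohorts the Lgals7 steps did not pass. For 1 against 0 and for 2 against 1 division limma called 0 of all 45037 probe sets, so the missing calls there were not particular to Lgals7. For 3 or more against 2 divisions it called 1.63% of all probe sets higher. From 0 to 1 division the log2 difference was 0.45 (95% interval -0.19 to 1.08), from 1 to 2 it was 1.34 (0.71 to 1.98), and from 2 to 3 or more it was 1.08 ± 0.28 (adjusted p = 0.0792). Within the 6 arrays registered together, 2 against 0 divisions gave 1.79 ± 0.28, or 3.45-fold (adjusted p = 0.118). With the replicate number as a block, 2 against 0 divisions passed (adjusted p = 0.0177), and so did 3 or more against 2 (adjusted p = 0.0234). For 2 against 0 divisions limma called 0 of 14 members without the block, against 0.0466% of all probe sets called higher. With the block it called 1, against 0.522% of all probe sets. Without the block 5 of the 14 had an unadjusted p under 0.05, as did 3217 of all 45037 probe sets.

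Tgm1, on chromosome 14 (chr14:55700009-55713921), had a different course. It read 5.99 and 6.64 after 3 or more divisions, against 4.34 and 4.41 in the control, and 4.38 and 4.47 after 2 divisions. After 0 divisions it read 4.02 and 3.85, below both controls, and after 1 division 4.23 and 4.42. Only the last cohort stands above the others. The log2 change against the control was 1.94 ± 0.20 (adjusted p = 0.000591), and against 2 divisions it was 1.89 ± 0.20, or 3.70-fold (adjusted p = 0.0162), the only member called in that step, where 1.63% of all probe sets were called higher. That step was lost without replicate 2 of either cohort (adjusted p = 0.0930 and 0.122). After 2 divisions the change from the control was 0.05, with a 95% interval of -0.41 to 0.51, and after 0 divisions it was -0.44 (-0.90 to 0.02, adjusted p = 0.538).

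Sfn, on chromosome 4 (chr4:133600556-133602168), read 4.69 and 4.89 after 3 or more divisions, against 3.93 and 3.72 in the control. The 2 groups did not overlap, and the log2 change was 0.96 ± 0.22 (adjusted p = 0.0172). The call was lost without control replicate 2 (adjusted p = 0.0849) or replicate 2 of the cohort (adjusted p = 0.119). After 2 divisions it read 4.37 and 4.36, also above both controls, but the change of 0.54 ± 0.22 did not pass (adjusted p = 0.252). Its arrays after 0 divisions, at 3.72 and 4.47, spanned most of that range.

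The other members, Ivl, Lor, Sprr1a and Sprr1b, are neighbours in the epidermal differentiation complex of chromosome 3, a cluster of genes for envelope proteins. Their upstream sequences are shown because the 4 genes share letters there, while not all of them were called. Whether their changes differ from one another was not tested. The 250 bases before a listed transcript start, from RefSeq promoters of build GRCm38.p6, are given on the gene's strand with every match to TGANTCA, the core of the AP-1 motif, in capitals. That start lies inside the outer gene bounds for Ivl and Sprr1b, whose windows overlap their genes by 55 and 38 bases.
Ivl (chr3:92573736-92573985, minus strand): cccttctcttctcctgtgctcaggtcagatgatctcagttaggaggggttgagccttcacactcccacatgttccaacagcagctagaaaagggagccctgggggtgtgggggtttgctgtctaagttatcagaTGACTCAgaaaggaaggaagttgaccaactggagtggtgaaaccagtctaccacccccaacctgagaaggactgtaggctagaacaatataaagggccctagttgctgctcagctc
Lor (chr3:92083143-92083392, minus strand): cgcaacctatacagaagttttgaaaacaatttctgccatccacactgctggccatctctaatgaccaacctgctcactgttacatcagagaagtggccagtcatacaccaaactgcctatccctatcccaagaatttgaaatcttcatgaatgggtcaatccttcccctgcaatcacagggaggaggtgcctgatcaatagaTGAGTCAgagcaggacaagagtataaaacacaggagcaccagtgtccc
Sprr1a (chr3:92485882-92486131, minus strand): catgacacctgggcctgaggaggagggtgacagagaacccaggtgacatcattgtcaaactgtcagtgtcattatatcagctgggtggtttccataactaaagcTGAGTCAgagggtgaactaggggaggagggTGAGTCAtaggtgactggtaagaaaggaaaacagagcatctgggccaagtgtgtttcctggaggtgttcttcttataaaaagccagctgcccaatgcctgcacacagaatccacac
Sprr1b (chr3:92438780-92439029, minus strand): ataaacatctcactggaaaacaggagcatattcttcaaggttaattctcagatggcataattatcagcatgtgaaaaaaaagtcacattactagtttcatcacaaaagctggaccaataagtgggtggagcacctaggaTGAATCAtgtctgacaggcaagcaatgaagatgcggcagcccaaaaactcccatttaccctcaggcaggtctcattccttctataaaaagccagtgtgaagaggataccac
All 4 held TGANTCA, and Sprr1a held 2 matches, while 6.75% of 32851 such windows held it on either strand. All 4 also held TATAAA, found in 12.4% of windows, from -29 in Ivl, -27 in Lor, -43 in Sprr1a and -30 in Sprr1b, counted back from the start. Promoter windows were listed for 7 of the 8 genes, all but Trp63, with 2 windows for Tgm1, and the windows of Lgals7 and Tgm1 lie wholly within the outer bounds of those genes. Sfn, Lgals7 and Tgm1 held neither motif, and GGGCGG was held by Lgals7 and Tgm1 and by 32.7% of windows. CACGTG (6.02% of windows) and ATGCAAAT (1.60%), an octamer bound by Pou5f1 and its relatives, were held by none of the 7 genes. The search covered both strands, TGANTCA and CACGTG read the same on both, and the matches to TGANTCA and TATAAA did not overlap.

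Of Ivl, Lor, Sprr1a and Sprr1b, Sprr1a had the smallest adjusted p against the control after 3 or more divisions. It read 4.77 and 4.88 after 3 or more divisions, against 4.11 and 4.28 in the control, a log2 change of 0.63 ± 0.11 (adjusted p = 0.00583). Leaving out replicate 2 of the cohort ended the call (adjusted p = 0.0511). Its arrays after 0, 1 and 2 divisions lay between 4.02 and 4.36, below both arrays of the last cohort. Against 2 divisions the change was 0.50 ± 0.11 and passed only with the replicate block (adjusted p = 0.0604 without it and 0.0234 with it).

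Sprr1b, its paralog, read 3.28 and 3.96 after 3 or more divisions, against 3.36 and 3.21 in the control. Replicate 2 of the cohort is the higher array and replicate 1 lies among the controls, so the groups overlap. The change of 0.34 had a 95% interval of -0.13 to 0.81 (adjusted p = 0.307).

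The 2 Ivl probe sets differed. Probe set 1439878_at read 4.57 and 4.58 after 3 or more divisions, against 4.04 and 3.81 in the control, a log2 change of 0.65 ± 0.17 (adjusted p = 0.0271), and its call was lost without any 1 of these 4 arrays (adjusted p = 0.0507 to 0.130). Against 2 divisions its change of 0.66 passed only with the replicate block (adjusted p = 0.0771 without it and 0.0299 with it). Probe set 1422222_at read 4.11 and 4.15 after 3 or more divisions, against 3.87 and 3.76 in the control, and its change of 0.32 had an interval of -0.01 to 0.64 (adjusted p = 0.167). Probe set 1422222_at had its highest mean after 2 divisions, at 4.38 and 4.14, where 1439878_at read 3.86 and 3.96.

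Lor, whose product is the main protein of the mature envelope, did not pass on any of its 3 probe sets, and 0 of them had an unadjusted p under 0.05 after 3 or more divisions. Probe set 1420183_at read 5.73 and 5.95 after 3 or more divisions, against 5.39 and 5.60 in the control, a change of 0.34 with an interval of -0.04 to 0.73. The other 2 changed by 0.30 (-0.04 to 0.63) and 0.00 (-0.41 to 0.40). Intervals of this width leave a rise of up to 1.65-fold within the range of the data.

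Trp63, on chromosome 16 (chr16:25683763-25892088), was not called in any comparison. After 3 or more divisions 3 of its 4 probe sets lay below both controls and none lay above, where 28.5% of all probe sets had their arrays apart in the downward direction. Probe set 1418158_at read 4.70 and 4.84, against 5.65 and 5.08 in the control, and 1452027_a_at read 3.86 and 3.97, against 5.01 and 4.09. Their log2 changes were -0.59 (interval -1.38 to 0.19, adjusted p = 0.282) and -0.64 (-1.58 to 0.30, adjusted p = 0.341), and the blocked fit gave adjusted p = 0.0906 and 0.0727. The remaining probe sets changed by -0.23 (-0.48 to 0.03) and -0.01 (-0.33 to 0.32). The sources used here do not say which Trp63 isoform each probe set reads.

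Both of these wider intervals come with a gap between replicate numbers. Probe set 1452027_a_at read higher on replicate 1 than on replicate 2 in the control (5.01 and 4.09) and after 0 (4.77 and 4.05), 1 (4.87 and 3.90) and 2 divisions (4.38 and 3.86), but not after 3 or more (3.86 and 3.97). Among the arrays of 3 or more divisions the members leaned the other way, with replicate 2 above replicate 1 on 13 of 14 probe sets, by 0.99 for Lgals7 and 0.65 for Tgm1, against 50.4% of all probe sets. In the other groups this held for 4 to 6 of 14. Without replicate 2 of that cohort 2 members, rather than 5, were called against the control and 0 against 2 divisions, with Lgals7 at 2.64 and Tgm1 at 1.62 on the log2 scale.

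**Figure D2:**
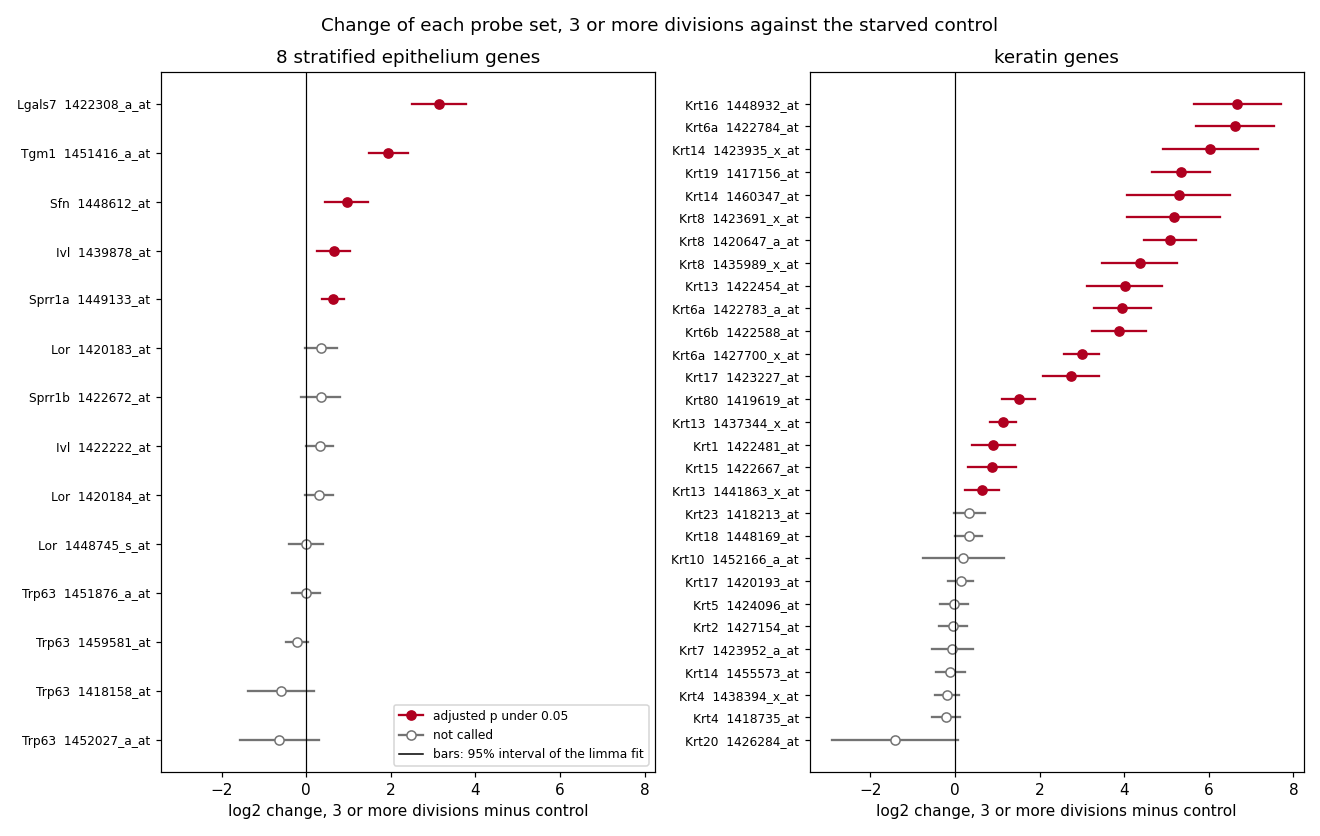
Log2 change (x axis, 3 or more divisions minus control) of each probe set of the 8 genes (left) and of 19 keratin genes (right), with 95% intervals of the limma fit and filled red points for adjusted p under 0.05. Members reach 3.15 with Lgals7, whereas Krt16, Krt6a and Krt14 exceed 6 and Krt5, Krt10 and Krt18 lie near 0.

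Keratins, the filament proteins of epithelia, were set beside the members as a list of 19 genes and 29 probe sets. After 3 or more divisions 18 of the 29 (62.1%) were called higher than the control and 0 lower (18 and 1, Krt20, with the replicate block). Of the member probe sets 35.7% were called higher, and of all probe sets 11.3%. The median log2 change was 1.14 for keratins, 0.33 for members and 0.00 for all probe sets. The largest keratin changes were Krt16 at 6.67 ± 0.45, Krt6a at 6.62 ± 0.40, Krt14 at 6.04 ± 0.49 (its probe set 1455573_at changed by -0.11) and Krt19 at 5.35 ± 0.30 (adjusted p of 0.000289 or less in limma). Krt16 and Krt6a are induced in stressed and wounded epidermis, Krt14 is the basal-layer keratin, and Krt19 is found in simple epithelia. The suprabasal keratin Krt1 rose by less (0.91 ± 0.22, adjusted p = 0.0217), and its partner Krt10 changed by 0.19 (adjusted p = 0.809). Krt5, the usual partner of Krt14, read 5.05 and 5.31, against 5.19 and 5.21 in the control (adjusted p = 0.948). Krt1, Krt5, Krt10, Krt18 and Krt20 were singled out after their values were seen. Whether the members and the keratins differ as lists was not tested.

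Keratins were also called in cohorts where few members were. After 1 division 7 of 29 keratin and 1 of 14 member probe sets had an unadjusted p under 0.05, as did 5453 of all 45037. Called higher were 2 keratin and 0 member probe sets, against 0.491% of all probe sets. With the block these were 3 keratin and 0 member probe sets, against 2.41% of all. After 2 divisions 9 keratin probe sets were called higher, led by Krt19 (4.57), Krt16 (4.11), Krt14 (3.08) and Krt6a (2.87), against 1 member and 2.48% of all probe sets. From 2 to 3 or more divisions 14 keratin probe sets were called higher, led by Krt6a (3.75), against 1 member and 1.63% of all probe sets. With the block these were 14 keratin and 4 member probe sets, against 6.35% of all. After 0 divisions 2 keratin and 0 member probe sets had an unadjusted p under 0.05, as did 4358 of all 45037. In limma 0 keratin and 0 member probe sets were called, against 0.0799% of all probe sets. With the block Krt16 was called (adjusted p = 0.0168), the only keratin, and 0 members, against 1.28% of all probe sets. Krt16 read 6.67 and 6.41 after 0 divisions, against 3.59 and 3.76 in the control. The comparisons with the control share its 2 arrays.

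**Figure D3:**
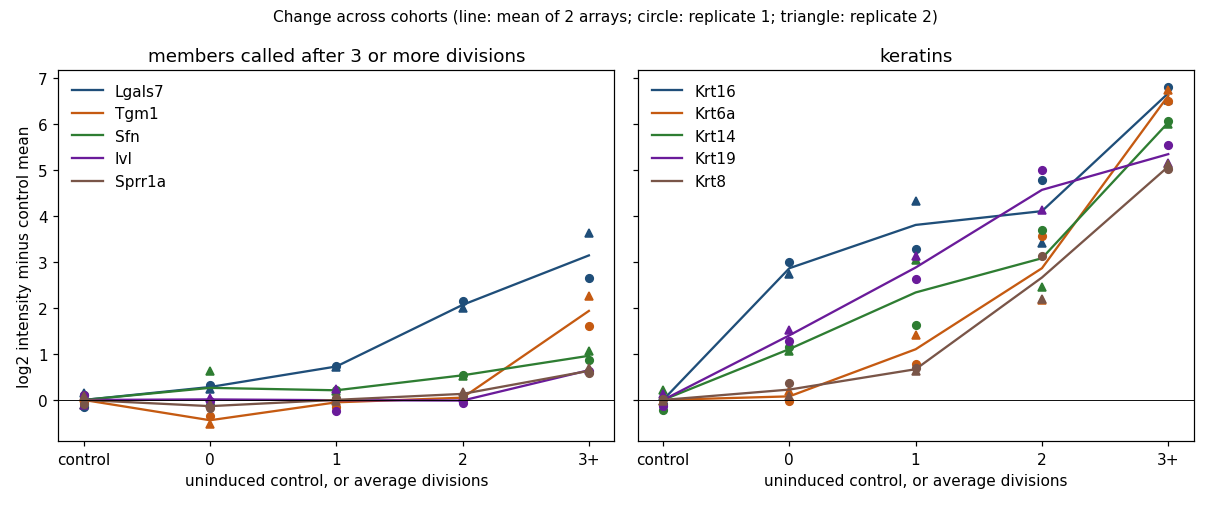
Log2 intensity minus the control mean (y axis) for the 5 called member probe sets (left) and 5 keratins (right) in the control and in cohorts of rising average divisions (x axis), with a line through the means, circles for replicate 1 and triangles for replicate 2. Krt16 is 2.87 above the control mean after 0 divisions, Lgals7 is 2.07 above it after 2, and Tgm1 is 0.05 above it after 2 and 1.94 above it after 3 or more.

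Beyond the 8 genes, a list of further genes of the cornified envelope and of terminal differentiation held 52 measured genes with 66 probe sets. After 3 or more divisions 19 probe sets of 14 genes rose and 1 fell, with a median log2 change of 0.15. That was 28.8% called higher, against 11.3% of all probe sets called higher and 9.38% lower. The largest rises were Slurp1, a secreted keratinocyte protein (6.14 ± 0.51), Dmkn (4.33 ± 0.87) and Sbsn (4.03 ± 0.44), secreted proteins of differentiating epidermis, and Cnfn, a cornified envelope protein (4.14 ± 0.50). The fall was that of 1444016_at of Anxa1 (-1.97 ± 0.27), while its other probe set, 1448213_at, changed by -0.13 (adjusted p = 0.534).

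The Sprr2, Sprr3 and late cornified envelope genes, which lie in the same chromosome cluster as Sprr1a, were not called. Among the Sprr2 and Sprr3 genes limma called 0 of 7 probe sets, with 0 at an unadjusted p under 0.05 and log2 changes of -0.20 to 0.33. The late cornified envelope genes (Lce) gave 0 calls among 12 probe sets, likewise 0 unadjusted, with changes of -0.28 to 0.25. Of all 45037 probe sets 11.3% were called higher and 9.38% lower, and 14461 had an unadjusted p under 0.05. The filaggrin gene Flg read 2.95 and 3.15 after 3 or more divisions, against 2.93 and 2.97 in the control. Neither family was a list of its own, and both, like Flg, were picked out after their values were seen. They do not stand for all genes of the envelope list. Crct1, likewise picked out afterwards, read 6.10 and 6.09 after 3 or more divisions, against 4.37 and 4.83 in the control.

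**Figure D4:**
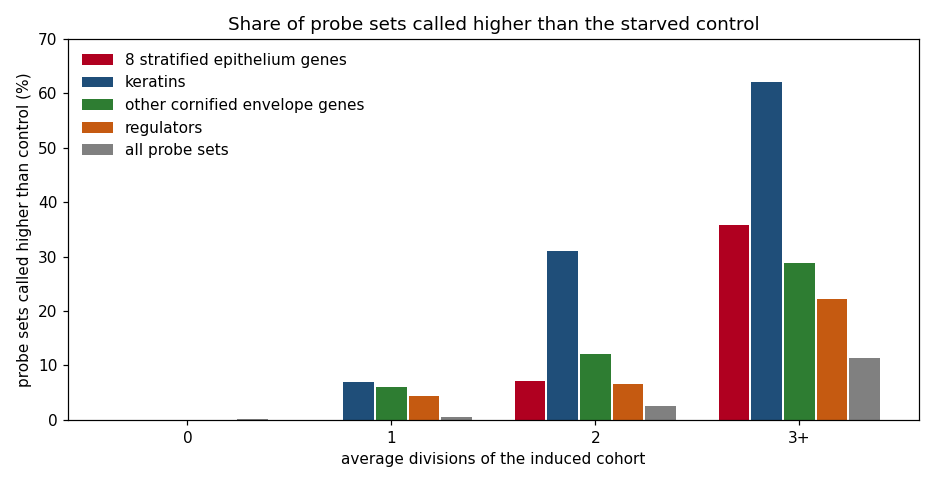
Share of probe sets called higher than the starved control (y axis, percent, adjusted p under 0.05) in each induced cohort (x axis, average divisions), for the 8 genes, 3 comparison lists and all probe sets. The members stand at 0 after 0 and 1 division, 7.14% after 2 and 35.7% after 3 or more, and keratins at 31.0% and 62.1% in the last 2 cohorts.

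Regulators of stratified epithelium, 23 measured genes with 45 probe sets, gave 10 probe sets of 8 genes that rose and 3 that fell after 3 or more divisions, with a median of 0.21. That was 22.2% called higher, against 11.3% of all probe sets called higher and 9.38% lower. The largest rises were Grhl3 (3.14 ± 0.32), a grainyhead factor known to activate Tgm1 in mouse epidermis, Perp (2.77 ± 0.28), a desmosomal gene and direct Trp63 target, the AP-1 subunit gene Fosl1 (2.62 ± 0.18) and Grhl1 (1.96 ± 0.23). The AP-1 subunit genes Fos (-2.06 ± 0.26) and Junb (-0.71 ± 0.18) fell, as did the ubiquitin ligase gene Itch on 1 of its 4 probe sets (-0.79 ± 0.12). Of its others, 1431316_at passed only with the replicate block (-1.01, adjusted p = 0.0845 without it and 0.0171 with it), and 1459332_at changed by 0.20. Fosl1 and Perp had also risen after 2 divisions (2.22 ± 0.18 and 1.83 ± 0.28), whereas Grhl3 stood at 1.19 and passed only with the replicate block (adjusted p = 0.0846 without it and 0.0334 with it).

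Relatives of single members showed their own changes after 3 or more divisions, where 11.3% of all probe sets were called higher and 9.38% lower. Of the other 14-3-3 genes, 3 of 6 rose on 7 of 30 probe sets, with Ywhaz at 0.90 ± 0.19, Ywhag at 0.81 ± 0.22 and Ywhae at 0.78 ± 0.19. Among the other galectins Lgals3 (2.46 ± 0.57) and Lgals2 (0.67 ± 0.20) rose and Lgals1, the abundant galectin of fibroblasts, fell (-0.60 ± 0.10). Tgm2, the widely expressed tissue transglutaminase, rose on 5 of its 6 probe sets (up to 2.49 ± 0.68), with controls far apart at 6.59 and 8.27 on 1417500_a_at. Tgm3, a further epidermal transglutaminase, rose on 1 of its 2 probe sets (1.29 ± 0.22), and the other passed only with the replicate block (0.77, adjusted p = 0.0565 without it and 0.0318 with it).

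The 3 array profiles most like a member's were found for the 4 member probe sets with a log2 range of at least 1, those of Trp63, Sfn, Lgals7 and Tgm1 named here. The measure was Pearson's r over the 10 arrays, among 9033 probe sets with a log2 range of at least 1, as a description only, since arrays of a group share its treatment. Lgals7 was closest to Prkcb (0.994) and to Dst (0.982 and 0.980), the hemidesmosome plakin. Tgm1 was closest to Pim2 (0.984), Nbeal2 (0.980) and Nup210 (0.978), and Sfn to Zfp593 (0.939), Cflar (0.939) and Zfp750 (0.930), an epidermal differentiation factor. Trp63 1452027_a_at was closest to Hapln1 (0.966), Car9 (0.961) and Fign (0.960). Its r was -0.55 with Sfn, -0.52 with Lgals7 and -0.44 with Tgm1, but the other Trp63 probe sets did not reach the range and were not compared. Lgals7 had an r of 0.842 with Tgm1 and 0.846 with Sfn. Outside 3 or more divisions Tgm1 read 3.85 to 4.47 and Sfn 3.72 to 4.47. Both thus reached the range only through that cohort, so their r with each other and with Lgals7 is partly set by the choice of probe sets.

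Markers of some cell types also changed, beside 11.3% of all probe sets called higher and 9.38% lower after 3 or more divisions. Fibroblast markers fell on 14 of 20 probe sets after 3 or more divisions and rose on 0, and their summed intensity was 95835 to 110654, against 179767 to 183932 in the control, so fibroblast transcripts were still abundant. Basal keratinocyte markers, which include Trp63, rose on 9 of 18 probe sets and fell on 0, with sums of 6383 to 6446 against 1649 to 1852 in the control. Simple epithelium markers rose on 8 of 17, with sums of 4081 on both arrays against 425 to 429. Macrophage markers rose on 1 and fell on 1 of 9, endothelial markers rose on 1 and fell on 3 of 10 (5 with the block), and pluripotent markers rose on 1 of 11, Pou5f1, which the transgenes also encode. The shares of these 3 lists called higher (11.1%, 10.0% and 9.09%) lay near that of all probe sets. The endothelial share called lower, 3 of 10, lay above the 9.38% of all probe sets. Control arrays of the endothelial marker Flt1 lay far apart, at 6.48 and 8.58 on 1419300_at. The macrophage marker Cd68 read 8.26 and 7.94 after 3 or more divisions, against 4.91 and 4.19 in the control. No marker was listed at 0. Actb signal at the 3-prime end exceeded that at the 5-prime end, a ratio that grows as RNA degrades, by 0.49 and 0.50 on the log2 scale after 3 or more divisions, against 0.26 on both control arrays. It was 0.46 and 0.50 after 2 divisions, 0.47 and 0.29 after 1, and 0.35 and 0.29 after 0, so the Actb shift was not particular to the last cohort. For Gapdh the difference was largest after 3 or more divisions, at 0.270 and 0.265, against 0.057 and 0.028 in the control. It was 0.112 and 0.263 after 2 divisions, 0.220 and 0.223 after 1, and 0.120 on both arrays after 0. The part of these shifts in the members' changes was not tested.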

How the data were processed

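The authors deposited linear intensity values for 45101 probe sets on 10 arrays. The submitters' processing notes name RMA for 4 of them (control, 3 or more divisions). For the other 6 the sources used here name no method. Intensities were floored at 1 (0 values lay below it), log2-transformed and quantile-normalized. The 64 array control probe sets were left out, which left 45037, of which 34945 listed 1 gene, 932 several and 9160 none. A name was given only where 1 gene was listed. RefSeq (GRCm38.p6) held 34754 of these by gene ID, and 0 symbols changed.

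Limma 3.58.1 in R 4.3.3 fitted the 5 group means to all 10 arrays (5 residual degrees of freedom). Members, comparison lists and tests were chosen with earlier results of these data known. All members are named, and of each list at most 4 called genes per direction, by size, with paralogs as values; exceptions are marked. Same-numbered arrays deviated together from their group means (r from 0.435 to 0.830 over the 10 pairs of groups, probe sets above the median level). Replicate number was therefore fitted as a block in an alternative. Unless marked as blocked, the calls, SEs, intervals and p-values given come from the fit without it and ignore this pairing. Blocked values stand beside results on members, keratins and other named genes whose call they change. The number of arrays limits precision. On simulated data for 3 or more divisions against control (45037 probe sets), 86 of 100 changes of 2 and 51 of 100 of 1 on the log2 scale were recovered, with 1 false call. There no other probe set was changed and the noise of each array was independent. The data had 11.3% of probe sets called higher and replicates that deviated together, so these rates do not give the power of the reported tests. Alternatives were other scaling, floors, filters, fits and leaving out each array.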

Additional observations from a re-analysis of the deposited data

How the results depend on the processing

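Across 19 alternatives, 99 of 114 counts of called members stayed within 1.5 times the reported count. These include counts of 0 that stayed at 0, for 0 and 1 division against the control and 2 against 0 divisions. Such counts do not show how stable the calls were. The 7 member calls kept their direction in all 128 refits and their side of the threshold in 118, and the 10 losses all came from leaving out 1 array. For 3 or more divisions against the control the count of 5 became 1 among the 3 member probe sets above the median level, a setting that tests fewer members by construction, and ran from 2 to 5 when single arrays were left out (2 without replicate 2 of the cohort, 3 without control replicate 2). For 2 divisions against the control leaving out arrays gave 0 to 1 calls, with 0 without replicate 1 of that cohort. For 2 against 0 divisions the replicate block gave 1 call in place of 0. For 3 or more against 2 divisions the count of 1 became 2 with a floor of 16, 2 with 16 added before log2, 2 with 1 probe set per gene, 4 with the replicate block and 0 with only bright probe sets, and ran from 0 to 2 when arrays were left out, with 0 without replicate 2 of either cohort and 2 without replicate 1 of the last cohort or either array of 1 division. The replicate block changed the call count of no other comparison of members. Where no construction shows it, the cause was not tested. The alternative for log-scale values was not run, because the values are linear. Dim signals limit all folds, since with 16 added the change of Lgals7 was 2.70 and that of Sprr1a 0.37.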
